A study of Mus musculus with 10 samples.

Results

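The 37 nuclear-encoded subunit genes of respiratory complex I were followed in mouse skeletal muscle with and without IMP2. They were taken as every protein-coding gene whose symbol starts with Nduf, goes on with a, b, c, s, v or ab and ends in a number, which gave 37 of the 43629 genes in the files. Assembly factors were left out by this rule, and the mitochondrially encoded subunits could not be described because all 37 mitochondrial genes had 0 counts in every library. IMP2, the product of Igf2bp2, is a protein that binds mRNA, and the study asked what it does in adult muscle by removing it there. RNA was sequenced from an immunoprecipitation (IP) with an antibody against IMP2 and from total muscle RNA, in knockout (KO) and wild-type (WT) mice. There were 2 KO IP, 2 WT IP, 3 KO total RNA and 3 WT total RNA libraries. All mice were C57BL/6 males aged 6 weeks that had been on a high-fat diet (HFD) for 2 weeks, so no group was on another diet. The sample labels call the KO genotype IMP2 null, the series text calls it muscle-specific, and neither the Cre line nor the removed part of the gene is given in the sources used here. Whether the replicates are different animals is not labelled; the p-values therefore speak of the spread between these libraries, which may be technical.

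Complex I takes electrons from NADH, passes them along iron-sulfur clusters to ubiquinone and pumps protons across the inner mitochondrial membrane. Its N module holds the NADH site, its Q module the ubiquinone site, and its membrane arm is built from the modules ND1, ND2, ND4 and ND5, each named after a mitochondrially encoded subunit. Of the 37 genes, 7 encode core subunits, which carry the redox chemistry, and 30 encode accessory proteins around them. Ndufa4, now known as a subunit of complex IV, and Ndufab1, the mitochondrial acyl carrier protein, match the symbol rule but also belong elsewhere, and are counted as members here. No Ndufb1 symbol was matched. In muscle, complex I is abundant wherever ATP is made by oxidation, most of all in oxidative fibres.

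Mammalian complex I promoters are known for binding sites of nuclear respiratory factor 1, a transcription factor of respiratory chain genes, and the 250 bases before the RefSeq gene starts (GRCm38.p6) were searched for its palindrome. The letters searched were GCGCA, any base, then GCGC, and on the other strand GCGC, any base, then TGCGC. They occurred in 7 of 35 promoters of the 33 members with an entry (20.0%), against 3.74% of all 32851 promoters in the table. The matches belonged to 6 genes are printed here 5′ to 3′ on the gene's strand with the match in capitals, because this was the searched motif most frequent among member promoters.
Ndufa11, chr17:56717672-56717741, plus strand: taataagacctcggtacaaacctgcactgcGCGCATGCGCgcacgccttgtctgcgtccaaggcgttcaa
Ndufa5, chr6:24527677-24527746, minus strand: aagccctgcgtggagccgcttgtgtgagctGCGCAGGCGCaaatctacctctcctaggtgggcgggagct
Ndufa8, chr2:36049339-36049398, minus strand: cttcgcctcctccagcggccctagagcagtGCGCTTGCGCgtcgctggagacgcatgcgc
Ndufb4, chr16:37654520-37654589, minus strand: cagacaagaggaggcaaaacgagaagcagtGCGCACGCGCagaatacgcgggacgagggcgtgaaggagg
Ndufs5, chr4:123718245-123718314, minus strand: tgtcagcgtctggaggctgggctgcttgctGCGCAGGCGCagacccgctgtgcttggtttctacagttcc
Ndufs6, chr13:73328483-73328528, minus strand: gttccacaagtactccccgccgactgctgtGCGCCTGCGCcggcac
The Ndufa5 match was found in both of its overlapping promoter entries. The ETS letters CCGGAAG or CTTCCGG stood in 8.57% of member promoters against 6.91% of all. AAGATGGCG, a YY1 motif, and TCAAGGTCA, an estrogen-related receptor motif, were searched on both strands and had 0 matches among the members, against 0.606% and 0.387% of all promoters. None of these letter strings contains another. The matches describe letters only, and binding was not measured.

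Reads counted to genes ran from 917462 to 4037480 in the IP libraries and from 9691580 to 14809788 in total RNA, so IP values rest on fewer reads. Every member passed the filter on low counts in every comparison, with 18 to 3119 reads per member in the IP libraries. Reads of Igf2bp2 numbered 21, 19 and 21 in KO total RNA and 35, 37 and 48 in WT total RNA, and its log2 difference of -0.36 ± 0.28 (SE) was not called by edgeR (Benjamini-Hochberg adjusted p = 0.897). The counts therefore give no check of the genotype labels. Some libraries stood apart in markers of other tissues. WT total RNA 2 held 532 CPM (counts scaled to library size) summed over 5 brown adipocyte markers, against 4.45 to 15.8 CPM in the remaining total RNA. KO total RNA 1 held 2434 CPM of 8 pancreatic islet markers, against 1.00 to 2.47 CPM in the others. KO total RNA 1 also had 46 reads of Xist, an RNA made in female cells, against 0 to 3 in the remaining total RNA and 0 to 4 in IP, although all mice were labelled male. IP libraries held 24.8 to 187 CPM of the brown adipocyte and 44.6 to 380 CPM of the islet markers. Skeletal muscle markers were high in all 10 libraries (38385 to 119276 CPM over 5 genes).

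**Figure D1:**
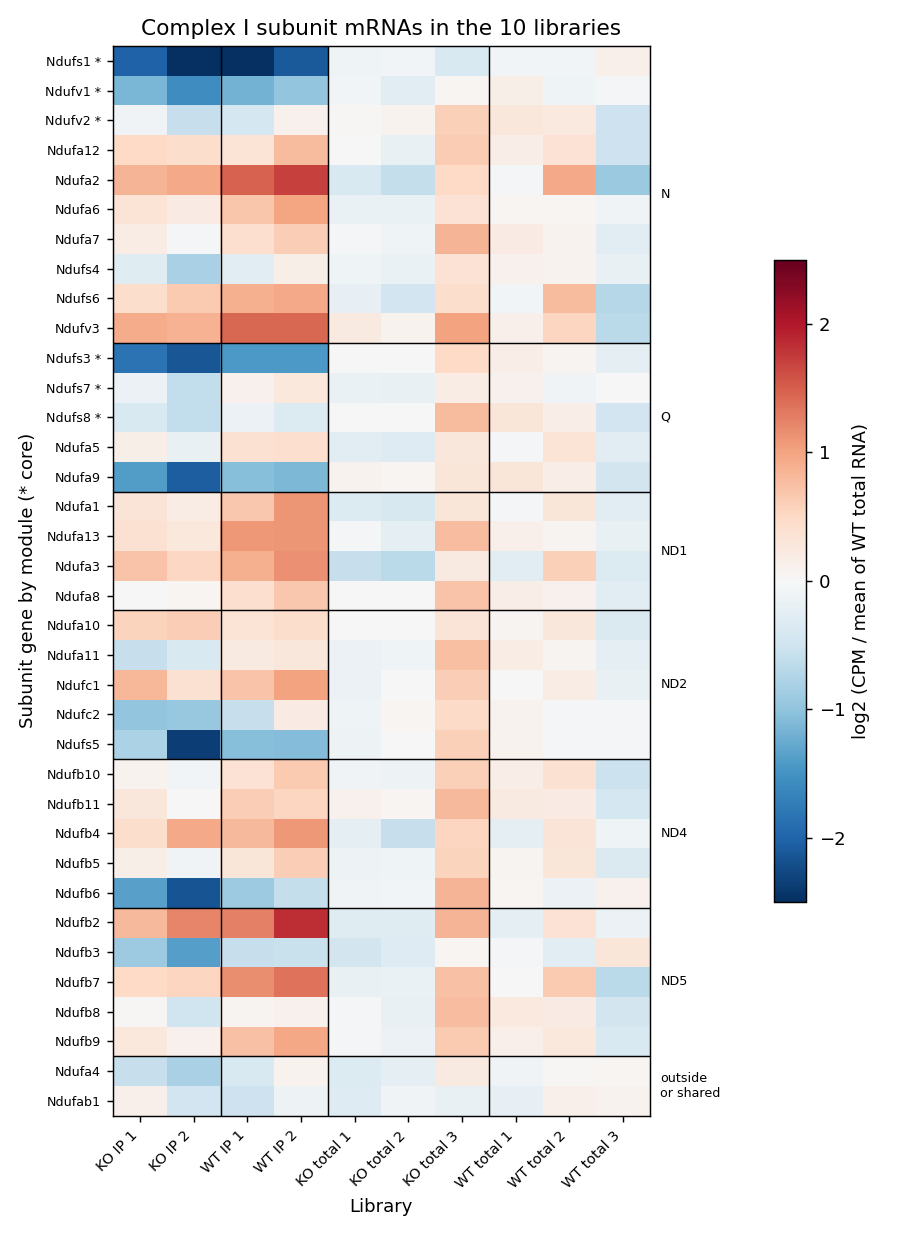
Level of 36 of the 37 members in each library (columns) as log2 of CPM over its mean in WT total RNA, with rows by module and core subunits starred. Ndufs1 is the deepest blue in the 4 IP columns, Ndufa2, Ndufv3 and Ndufb2 are the reddest in WT IP, and KO total RNA 3 is red for most rows, being the highest total RNA library for 27 of 37 members.

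Complex I mRNAs were abundant in this muscle. Per kilobase of principal transcript, the members had a median of 228 CPM in WT total RNA, against 5.32 for 13116 protein-coding genes, and all 37 lay above that median. The highest was Ndufa4 at 919 ± 44.6 CPM per kilobase (SD, n = 3), and Ndufb9, a small accessory protein of the ND5 module, was also among the highest at 726 ± 160. The lowest were Ndufs5 at 56.8 ± 3.33, Ndufab1 at 44.3 ± 5.50 and Ndufb4 at 14.1 ± 2.91 CPM per kilobase. The highest level was 65.2 times the lowest. In this order, 32 of 36 neighbouring pairs had overlapping ranges over the 3 WT libraries, so most neighbours did not differ beyond their spread. Reads aligned to several places (26.1% to 43.3% of reads per library) were set aside, so reads shared with near-identical copies elsewhere in the genome do not count towards a member and the low levels are uncertain. The strand setting of the counting is not given in the sources used here, and 15 members overlap an antisense gene.

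In total RNA, KO muscle held complex I mRNAs at levels that overlapped those of WT muscle for all 37 members, and none was called by edgeR's quasi-likelihood test at an adjusted p of 0.05. Over all 13169 genes tested, 0% were called, and 9.61% had groups that did not overlap. Not a single member had an unadjusted p under 0.05, against 4.32% of all genes; DESeq2 called 0 members as well, and 0.0380% of all genes. Of the members, 24 had a positive KO minus WT difference, as did 48.0% of all genes, and 13 a negative one, with a median log2 of 0.11 beside -0.01 for all genes. In such bulk samples, the number of muscle cells and the RNA per cell cannot be told apart.

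The members with the smallest p in total RNA lay on both sides of 0. Ndufab1 had 46.4, 55.0 and 51.6 CPM in KO total RNA, against 49.9, 64.0 and 62.3 CPM in WT total RNA, a log2 difference of -0.20 ± 0.16 (SE; edgeR adjusted p = 0.897). Ndufb3, an accessory subunit of the ND5 module, had 71.0, 77.9 and 101 CPM in KO and 95.9, 81.8 and 121 CPM in WT, a difference of -0.26 ± 0.20. Both pairs of groups overlapped, KO total RNA 3 being the highest of its group for Ndufb3. Ndufb11, of the ND4 module, had 216, 210 and 357 CPM in KO and 235, 237 and 151 CPM in WT, with a difference of 0.33 ± 0.26. Ndufv3, an accessory subunit of the N module, had 120, 110 and 207 CPM in KO and 112, 151 and 65.7 CPM in WT, with a difference of 0.41 ± 0.33, the most positive of the 37. For both genes the difference came with 1 high KO library, number 3, and 1 low WT library, number 3.

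Of the core subunits, 4 had a negative and 3 a positive difference in total RNA. The log2 difference was -0.19 ± 0.17 for Ndufs1, the large iron-sulfur subunit of the N module, -0.10 ± 0.16 for Ndufv1, which binds NADH and the flavin, and -0.05 ± 0.17 for Ndufs7, which carries the terminal iron-sulfur cluster. It was 0.19 ± 0.19 for Ndufs3, 0.21 ± 0.25 for Ndufv2 and 0.27 ± 0.27 for Ndufs8. The 7 core genes had a median of -0.05, and none was called. By module, medians ran from 0.03 (Q, 6 genes) and 0.04 (N, 10 genes) to 0.18 (ND2, 5 genes, all positive).

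Libraries of 1 genotype spread widely. KO total RNA 3 was the highest of the 6 libraries for 27 of 37 members, with a median of 0.50 (log2) above the 6-library mean, and WT total RNA 3 was the lowest for 19 members, with a median of -0.26. The ratio of the highest to the lowest library had a median of 1.96 over the members. It was largest for Ndufa2 (3.63), a thioredoxin-fold subunit of the N module whose CPM were 166, 145 and 310 in KO and 213, 425 and 117 in WT. Summed over the 37 genes, complex I came to 8350, 8136 and 11890 CPM in KO total RNA and 9575, 10187 and 7953 CPM in WT total RNA, on the scale of all 10 libraries. Without KO total RNA 3 the member median became -0.13, with 32 of 37 differences negative, and without WT total RNA 3 it became -0.04, with 21 negative. Scaling by library size alone gave -0.10, with 30 negative, so the sign of the small total RNA difference is not settled by these libraries. Without both WT total RNA 2 and KO total RNA 1, the libraries with the foreign markers, the median was 0.38; without KO total RNA 1 alone it was 0.23.

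Fibre markers differed between the same libraries. On the scale of all 10 libraries, the summed level of 11 fast fibre markers was 236187, 213033 and 278198 CPM in KO total RNA and 187603, 193400 and 112428 CPM in WT total RNA, and all 11 had a positive difference (median log2 0.60). The 9 slow fibre markers summed to 217, 253 and 529 CPM in KO and 163, 245 and 550 CPM in WT. Thus KO total RNA 3 was the highest and WT total RNA 3 the lowest in fast fibre markers, as for most complex I members, while both number 3 libraries were high in slow fibre markers. The part of fibre makeup in the complex I values was not tested.

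**Figure D2:**
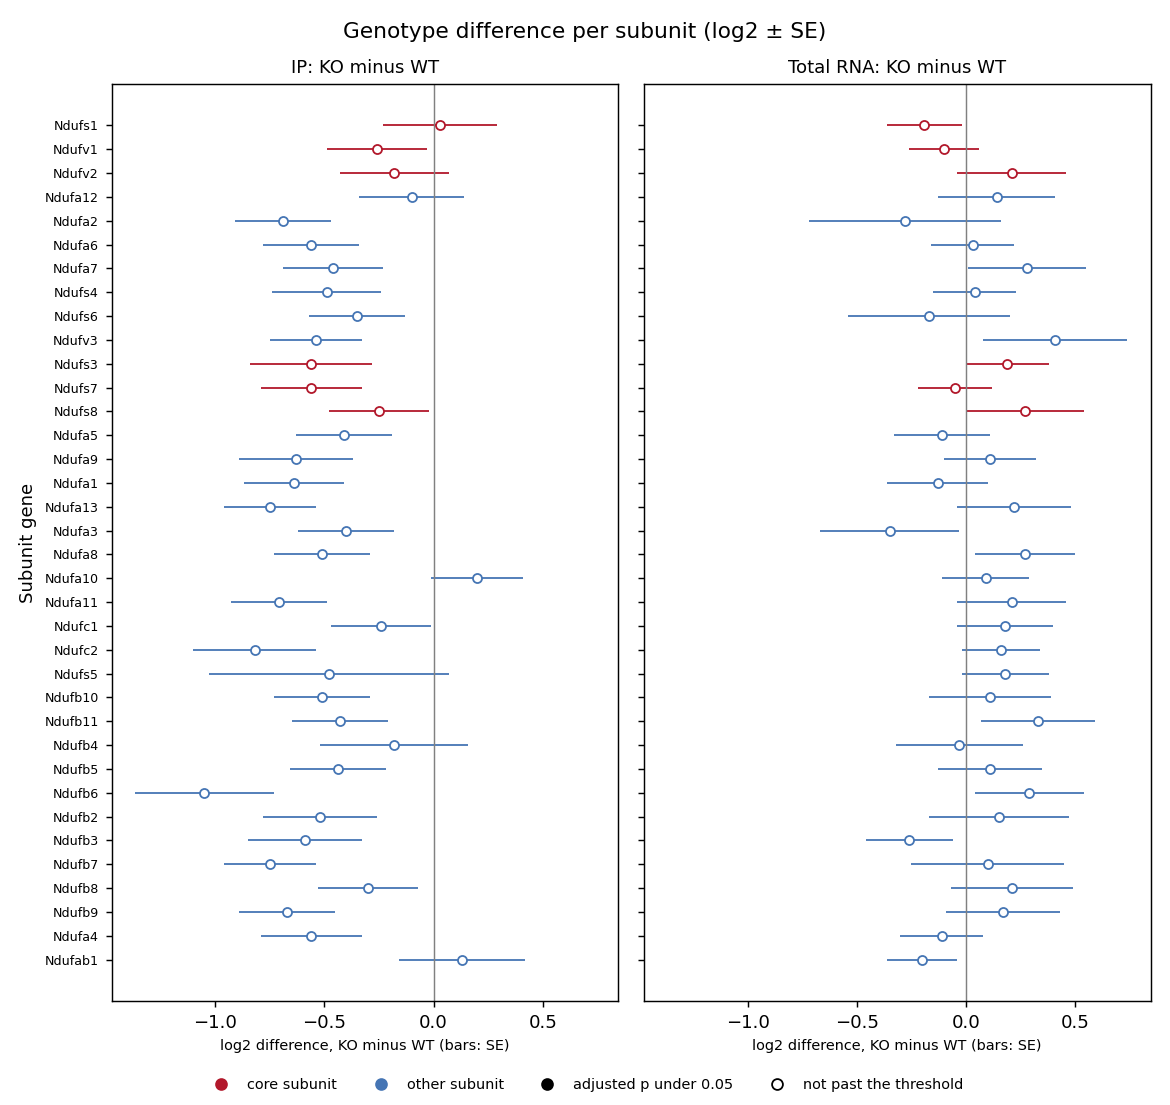
KO minus WT log2 difference of 36 members (points, bars ± SE) in IP (left) and in total RNA (right), core subunits in red and others in blue, open where the edgeR adjusted p is 0.05 or more. In IP 33 of the 36 points drawn lie below 0 (median of all 37 members -0.49); in total RNA they scatter on both sides of 0 (median of all 37 members 0.11), and every point is open.

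In WT muscle, the antibody fraction held complex I mRNAs unevenly. Of 7 core subunit mRNAs, 4 were called lower in IP than in total RNA and none was called higher. Of 30 accessory subunit mRNAs, 11 were called higher and 2 were called lower. Relative to total RNA, 11 members were higher in IP, 6 were lower and 20 were not called by edgeR (adjusted p under 0.05, fit of all 10 libraries). Over all 14399 genes tested, 17.6% were higher and 19.4% were lower, 37.0% in all. The member median was 0.38, beside -0.05 for all genes. Of the 41 genes of complexes II to V, 17.1% were higher in WT IP and 24.4% lower, with a median of 0.15. The values that follow are CPM scaled over all 10 libraries.

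The members lower in WT IP were led by core genes. Ndufs1 (ENSMUSG00000025968, chromosome 1, 63143596 to 63176833 on the minus strand, GRCm38) had 101 and 138 CPM in WT IP, against 560, 565 and 648 CPM in WT total RNA, a log2 difference of -2.31 ± 0.25 (SE; edgeR adjusted p = 1.9e-05). Ndufs3 (ENSMUSG00000005510, chromosome 2, 90894634 to 90904827, minus strand), a core subunit of the Q module, had 45.4 and 45.6 CPM in WT IP and 138, 129 and 106 CPM in WT total RNA, a difference of -1.45 ± 0.23 (edgeR adjusted p = 2.8e-04). In both genes every IP library lay below every total RNA library. Ndufv1 had 216 and 248 CPM in WT IP, against 544, 456 and 470 CPM in total RNA (-1.08 ± 0.21, edgeR adjusted p = 0.00145). Among the accessory subunits, 2 were called lower, Ndufa9 of the Q module, which binds NADPH (-1.12 ± 0.26), and Ndufs5 of the ND2 module (-1.07 ± 0.34). The core genes that were not called included Ndufs7, which had a difference of 0.19 ± 0.21, Ndufv2 with -0.18 ± 0.28 and Ndufs8 with -0.29 ± 0.28.

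The members called higher in WT IP were all accessory subunits. Ndufb2 (ENSMUSG00000002416, chromosome 6, 39592574 to 39603382, plus strand), a small protein of the ND5 module, had 118 and 176 CPM in WT IP, against 42.1, 63.4 and 44.2 CPM in WT total RNA, a log2 difference of 1.56 ± 0.33 (edgeR adjusted p = 0.00219). Ndufv3 had 301 and 300 CPM in WT IP and 121, 161 and 69.6 CPM in total RNA, a difference of 1.36 ± 0.31 (edgeR adjusted p = 0.00402). The groups did not overlap in either gene, and the total RNA libraries spread more widely than the IP libraries for Ndufv3. Ndufa2 had 653 and 770 CPM in WT IP, against 229, 453 and 124 CPM in total RNA (1.40 ± 0.41, edgeR adjusted p = 0.0161). Ndufb7, which carries a twin cysteine motif in the intermembrane space, had 415 and 478 CPM in WT IP and 188, 291 and 117 CPM in total RNA (1.17 ± 0.34, edgeR adjusted p = 0.0143). Ndufa13, Ndufa3, Ndufb4, Ndufa1, Ndufc1, Ndufa6 and Ndufb9 made up the rest of the 11, with differences between 0.83 and 1.08. They included 3 of the 4 ND1 module genes and none of the 6 Q module genes.

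Without WT IP 2, 7 members were called (2 higher, 5 lower) and Ndufb2, Ndufa2 and Ndufb7 lost their calls; of all genes, 10.9% were then higher and 13.8% lower. Without WT IP 1, 11 were called (7 higher, 4 lower; 11.8% and 14.1% of all genes) and Ndufa2 was among those that lost theirs. Ndufs1, Ndufs3, Ndufv1, Ndufa9 and Ndufv3 kept their calls under each alternative run. Summed over the 7 core genes, the level was 1733 and 2042 CPM in WT IP, against 3420, 3151 and 3186 CPM in WT total RNA. Summed over the 30 other genes it was 8137 and 9421 CPM in WT IP and 6155, 7036 and 4767 CPM in WT total RNA. Thus the summed core level was lower and the summed accessory level higher in both WT IP libraries than in all 3 WT total RNA libraries.

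**Figure D3:**
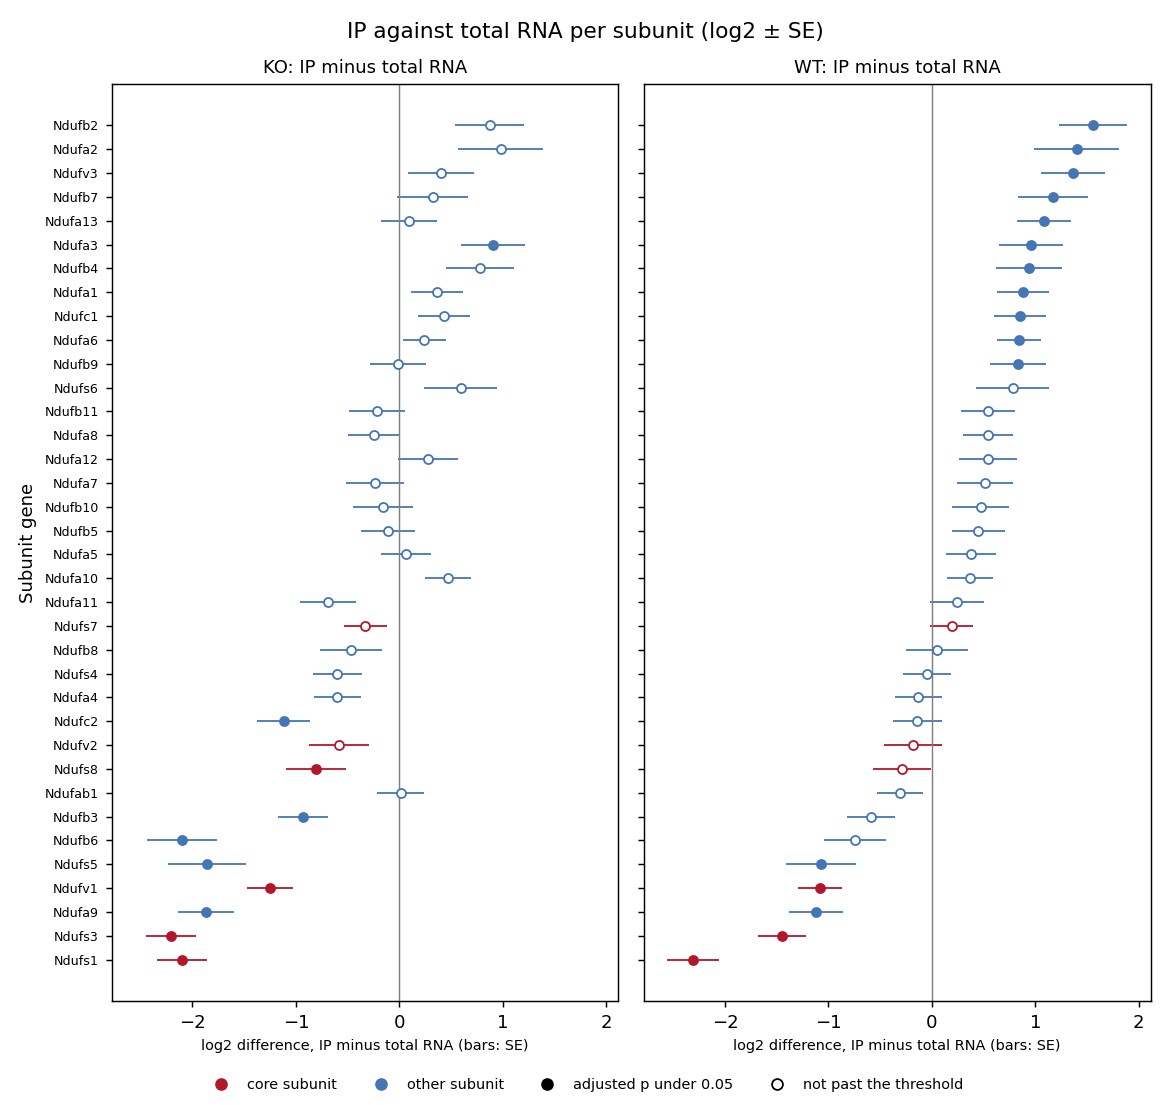
IP minus total RNA log2 difference of 36 members (points, bars ± SE) in KO (left) and WT muscle (right), ordered by the WT value, core subunits in red and others in blue, filled where the edgeR adjusted p is under 0.05. Of the 36 points drawn, 1 is filled to the right of 0 and 9 to the left in KO; in WT 11 are filled to the right and 5 to the left.

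In KO muscle, 5 of 7 core mRNAs were called lower in IP than in total RNA. Of the 11 accessory mRNAs called higher in WT, only Ndufa3 was called higher in KO. Whether the genotypes differed in this was tested separately, and no member passed. By the same fit, 1 member was higher, 10 were lower and 26 were not called, against 17.7% of all genes higher and 18.8% lower (36.5% in all). The member median was -0.22, beside 0.03 for all genes. Complexes II to V had 4.88% of 41 genes higher in KO IP and 39.0% lower, with a median of -0.48.

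Ndufs3 had 34.6 and 28.0 CPM in KO IP, against 125, 125 and 175 CPM in KO total RNA, a log2 difference of -2.21 ± 0.24 (edgeR adjusted p = 3.0e-05). Ndufs1 had 145 and 101 CPM in KO IP and 545, 564 and 455 CPM in KO total RNA, a difference of -2.10 ± 0.24 (edgeR adjusted p = 4.0e-05). Both KO IP libraries lay below all 3 KO total RNA libraries for these genes, as in WT. Ndufb6 (ENSMUSG00000071014, chromosome 4, 40270591 to 40279421, minus strand), an accessory subunit of the ND4 module, had 32.7 and 18.7 CPM in KO IP, against 78.6, 79.3 and 150 CPM in KO total RNA (-2.10 ± 0.34, edgeR adjusted p = 3.3e-04). Ndufa9 had 122 and 77.2 CPM in KO IP and 343, 332 and 399 CPM in KO total RNA (-1.87 ± 0.27, edgeR adjusted p = 1.8e-04). Ndufs5 (-1.86), Ndufv1 (-1.25), Ndufc2 (-1.12), Ndufb3 (-0.93) and Ndufs8 (-0.81) were also called lower. The 1 member called higher was Ndufa3 of the ND1 module, with 291 and 255 CPM in KO IP, against 119, 111 and 209 CPM in KO total RNA (0.90 ± 0.31, edgeR adjusted p = 0.0360). Its call was lost without KO IP 1, KO IP 2, KO total RNA 1, KO total RNA 2 or WT IP 2 (adjusted p of 0.0808 to 0.148).

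These KO values depended on scaling and on single libraries. With library size as the sole scaling, the IP minus total RNA median in KO was 0.47 for all genes and 0.22 for the members, with 20 members called, 12 of them higher; under that scaling 29.6% of all genes were higher and 9.99% lower. Relative to the shifted median of all genes the members still lay lower. Without KO IP 2, 6 members were called, all lower, as were 8.03% of all genes, with 6.18% higher. Without KO total RNA 3, the library high in most members, the median became 0.06, with 5 members higher and 9 lower (15.7% and 17.0% of all genes). In these same comparisons fast fibre markers were lower in KO IP: 96774 and 73808 CPM, against 236187, 213033 and 278198 CPM in KO total RNA (7 of 11 genes called lower). In WT they summed to 94539 and 121443 CPM in IP, against 187603, 193400 and 112428 CPM in total RNA (4 of 11 called lower, 1 higher). Their part in the complex I values was not tested.

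**Figure D4:**
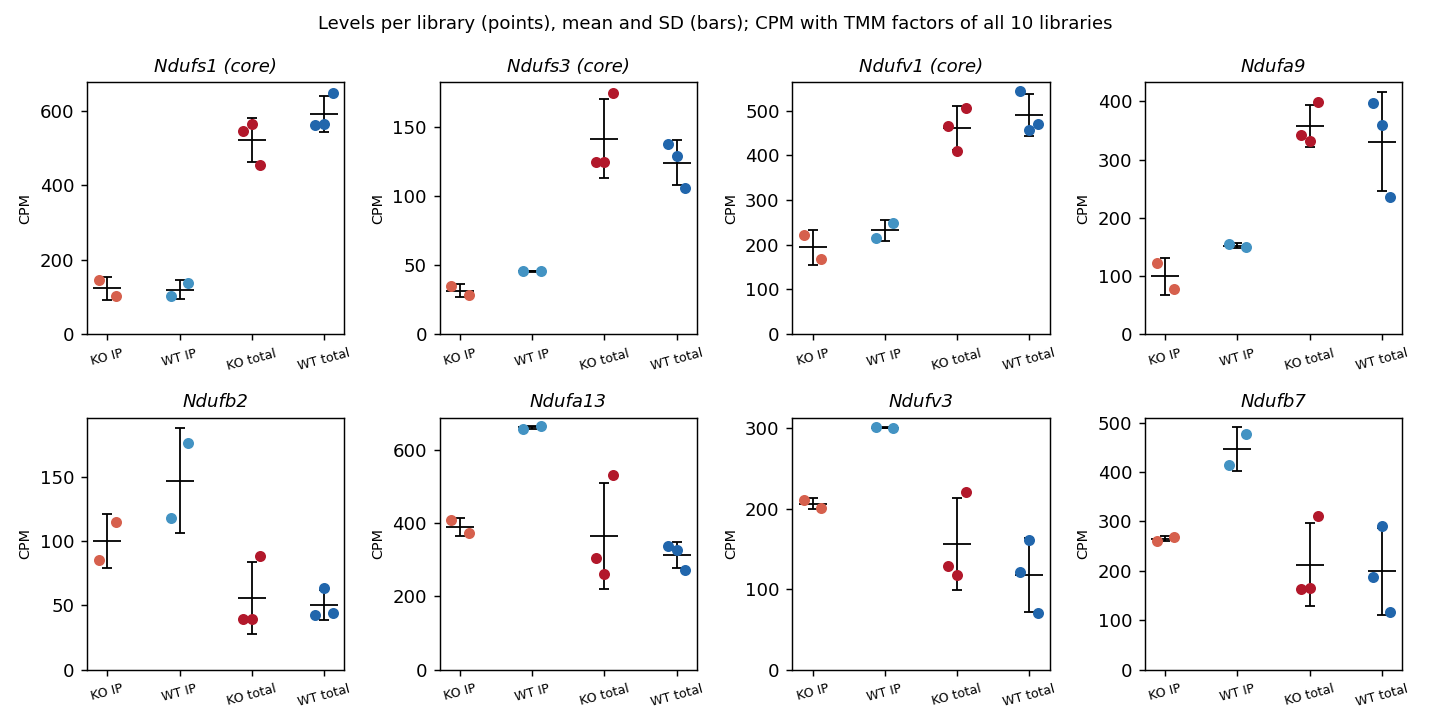
CPM per library (points; scaled over all 10 libraries) with mean and SD (bars) of 3 core subunits and the accessory subunit Ndufa9 (top) and 4 other accessory subunits (bottom) in KO IP, WT IP, KO total RNA and WT total RNA. The 4 genes in the top row are lower in all IP libraries than in all total RNA libraries, and Ndufa13 reaches 659 and 665 CPM in WT IP against 408 and 373 CPM in KO IP.

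Between the IP fractions, the KO minus WT difference was negative for nearly every complex I mRNA, but no single gene passed the edgeR test. Of 37 members, 34 had a negative KO minus WT difference, beside 49.1% of the 10730 genes tested, and the median log2 was -0.49, beside 0.01 for all genes. edgeR called 0% of the 10730 genes and none of the members; at an unadjusted p under 0.05 it had 16 members, all with a negative difference, against 4.83% of all genes with a negative difference. For 28 members both KO IP libraries lay below both WT IP libraries, which held for 20.3% of all genes. For 1 member, Ndufa10 of the ND2 module, both KO IP libraries lay above both WT IP libraries, as for 20.8% of all genes. DESeq2 called 4 members lower in KO IP: Ndufa13 (adjusted p = 0.0232), Ndufb7 (0.0373), Ndufa2 (0.0427) and Ndufb9 (0.0497). DESeq2 gave an adjusted p to 1369 genes there, 29 of them members, and called 2.34% of these genes lower in KO IP.

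The values that follow are CPM scaled over the 4 IP libraries. Ndufa13 (ENSMUSG00000036199, chromosome 8, 69894180 to 69902558, minus strand), a membrane arm subunit of the ND1 module, had 459 and 415 CPM in KO IP, against 735 and 737 CPM in WT IP, a log2 difference of -0.75 ± 0.21 (SE; edgeR adjusted p = 0.248). Ndufb7 (ENSMUSG00000033938, chromosome 8, 83566671 to 83571626, plus strand) had 294 and 298 CPM in KO IP and 462 and 530 CPM in WT IP, with the same difference of -0.75 ± 0.21 (edgeR adjusted p = 0.249). The KO and WT libraries were well apart in both genes, with the replicates of each group close together. Ndufb6 had 36.7 and 20.8 CPM in KO IP, against 49.7 and 61.4 CPM in WT IP. Its difference of -1.05 ± 0.32 was the most negative of the 37 (edgeR adjusted p = 0.265). Without KO IP 1, which left 1 KO library, the difference was -1.42. Ndufa11 (ENSMUSG00000002379, chromosome 17, 56717767 to 56722141, plus strand), a membrane arm subunit, had 119 and 136 CPM in KO IP and 205 and 215 CPM in WT IP (-0.71 ± 0.22, edgeR adjusted p = 0.265). Neither of these pairs of groups overlapped, and the KO libraries of Ndufb6 were the most widely spread. The 3 positive members were chosen for naming after their values were seen: Ndufa10 had 697 and 720 CPM in KO IP and 595 and 637 CPM in WT IP (0.20 ± 0.21), Ndufab1 had a difference of 0.13 ± 0.29 and Ndufs1 of 0.03 ± 0.26.

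By module, every gene of Q (6, median -0.50), ND1 (4, median -0.57), ND4 (5, median -0.44) and ND5 (5, median -0.59) had a negative difference, as did 9 of 10 genes of N (median -0.40) and 4 of 5 of ND2 (median -0.48). Among the core genes the difference was -0.56 ± 0.28 for Ndufs3, -0.56 ± 0.23 for Ndufs7, -0.26 ± 0.23 for Ndufv1, -0.25 ± 0.23 for Ndufs8 and -0.18 ± 0.25 for Ndufv2. The core median was -0.26 and that of the other 30 genes -0.51. The 6 genes with the respiratory factor match in their promoter had differences of -0.71 (Ndufa11), -0.51 (Ndufa8), -0.48 (Ndufs5), -0.41 (Ndufa5), -0.35 (Ndufs6) and -0.18 (Ndufb4), within the range of the others. In total RNA the same 6 ran from -0.17 (Ndufs6) to 0.27 (Ndufa8).

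Markers of other cells differed between the same IP libraries. The summed level of 5 erythroid markers was 483 and 778 CPM in KO IP, against 156 and 310 CPM in WT IP, and all 4 that were tested had a positive difference (median log2 1.31, none called). The 4 fibroblast markers summed to 6233 and 5724 CPM in KO IP and 3623 and 2653 CPM in WT IP. The 5 skeletal muscle markers summed to 48968 and 38385 CPM in KO IP and 56423 and 64328 CPM in WT IP. Of these 5, 4 had a negative difference and 1 a positive one (median log2 -0.44, none called). The 5 endothelial markers summed to 566 and 913 CPM in KO IP and 478 and 483 CPM in WT IP, and all 5 had a positive difference (median log2 0.45, none called). Thus the sums of these blood, vessel and connective tissue markers were higher in KO IP and that of the skeletal muscle markers lower. The sums did not overlap, but this need not hold for each gene. None of these markers was at 0 in either group. The fast fibre sums did overlap, with 96774 and 73808 CPM in KO IP and 94539 and 121443 CPM in WT IP. Even so, 10 of the 11 fast fibre markers had a negative difference (median log2 -0.25, none called). The slow fibre sums overlapped as well (503 and 261 CPM in KO IP, 340 and 363 CPM in WT IP). Of the 9 slow fibre markers, 6 had a positive difference (median log2 0.20, none called). The 5 macrophage markers overlapped too, at 291 and 275 CPM in KO IP and 484 and 185 CPM in WT IP. The part of all these markers in the complex I difference was not tested.

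Members were not alone in this pattern. Between the IP libraries, 13 of 13 complex IV genes tested (median -0.56), 9 of 9 of complex III (median -0.46), 12 of 13 of complex V (median -0.36) and 56 of 65 cytosolic ribosomal protein genes (median -0.44) had a negative difference, and none of these genes was called by edgeR. Complex II had 2 of 4 (median -0.07). Of 15 complex I assembly factors, which build the complex but are not part of it, 11 had a negative difference, with a median of -0.23. Among them Ecsit had -0.69 ± 0.23, Tmem126b -1.55 ± 0.51 and Foxred1 0.82 ± 0.27, each with an edgeR adjusted p between 0.292 and 0.294. The 9 regulators of mitochondrial biogenesis, such as Ppargc1a and Nrf1, had a median of 0.06. In total RNA the corresponding medians were 0.11 for complex IV, 0.01 for complex III, 0.18 for complex V, -0.04 for complex II, 0.25 for the cytosolic ribosomal proteins (62 of 74 positive), -0.05 for the assembly factors and -0.16 for the regulators, with none called.

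The difference between the genotypes in IP relative to total RNA was tested directly, as KO minus WT of the IP minus total RNA difference. These comparisons share their libraries with those above and are not further evidence. None of the 37 members was called, and 0.00694% of 14399 genes were. At an unadjusted p under 0.05 there were 7 members, all negative, against 5.38% of all genes with a negative difference. The member median was -0.53, with 34 negative (48.7% of all genes), beside a median of 0.02 for all genes. Other lists shared this direction. Complexes II to V had 37 of 41 genes negative (median -0.46) and the cytosolic ribosomal proteins 60 of 75 (median -0.71). All 11 fast fibre markers were negative (median -0.99), while 6 of 9 slow fibre markers were positive (median 0.21). None of these genes was called. The members with the smallest p were Ndufb6 (-1.36 ± 0.44, edgeR adjusted p = 0.342), Ndufc2 (-0.99 ± 0.35, 0.347), Ndufa13 (-0.99 ± 0.38, 0.352) and Ndufa11 (-0.94 ± 0.37, 0.363). Ndufa11 had 106 and 122 CPM in KO IP and 143, 147 and 265 CPM in KO total RNA, against 184 and 194 CPM in WT IP and 179, 167 and 133 CPM in WT total RNA. Its IP libraries lay below total RNA in KO and above it in WT. edgeR called neither difference (adjusted p = 0.0579 in KO and 0.489 in WT), while DESeq2 called the one in KO (-0.74, adjusted p = 0.0280). Ndufs1, the member with the most negative difference in WT, had 0.21 ± 0.32. With library size as the sole scaling, the median was 0.40 for all genes and -0.17 for the members, which again lay below all genes. Without KO total RNA 3 the member median was -0.27.

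The IP differences varied with transcript length and exon number. Principal transcripts ran from 419 to 2590 bases with a median of 861, the core genes being longer (median 1623 bases, 7 to 19 exons) than the other 30 (median 718 bases, 3 to 11 exons). Of the 23 members under 1000 bases, all had a negative KO minus WT difference in IP (median -0.52), as did 11 of the 14 longer ones (median -0.35). The same direction was seen over all protein-coding genes: 478 of 639 under 1000 bases were negative (median -0.31), against a median of 0.04 for the longer ones. Across the 37 members the KO minus WT difference in IP had a Pearson r of 0.55 with log2 length (0.13 over 10411 protein-coding genes) and of 0.42 with exon number (0.16), given as a description because members share libraries and are not independent.

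For WT IP minus total RNA, r was -0.67 with exon number among the members (-0.18 over 13116 protein-coding genes) and -0.44 with log2 length (-0.23). For KO IP minus total RNA, r was -0.49 with exon number (-0.10) and -0.28 with log2 length (-0.18). Among protein-coding genes under 1000 bases, 37.6% were higher in WT IP, as were 8 of 23 members (34.8%); at 1000 bases or more it was 16.7% of all genes and 3 of 14 members (21.4%). Members of 1000 bases or more were lower in WT IP in 5 of 14 cases (35.7%), against 20.8% of all such genes. In KO IP, 4.35% of members under 1000 bases were higher and 21.7% lower (median -0.22). Of all protein-coding genes of that length, 27.0% were higher in KO IP and 9.99% lower (median 0.39). The longer members called lower in WT IP included Ndufs1, Ndufs3, Ndufv1 and Ndufa9. The 3 longer members called higher were the accessory genes Ndufv3 (1582 bases), Ndufa13 (1251 bases) and Ndufc1 (1249 bases). Of the 7 core genes, 2 are under 1000 bases, Ndufs7 (758 bases) and Ndufs8 (983 bases). Neither was called in WT IP, and nor was the longer Ndufv2 (1697 bases). The parts of length and of role in these values were not tested.

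**Figure D5:**
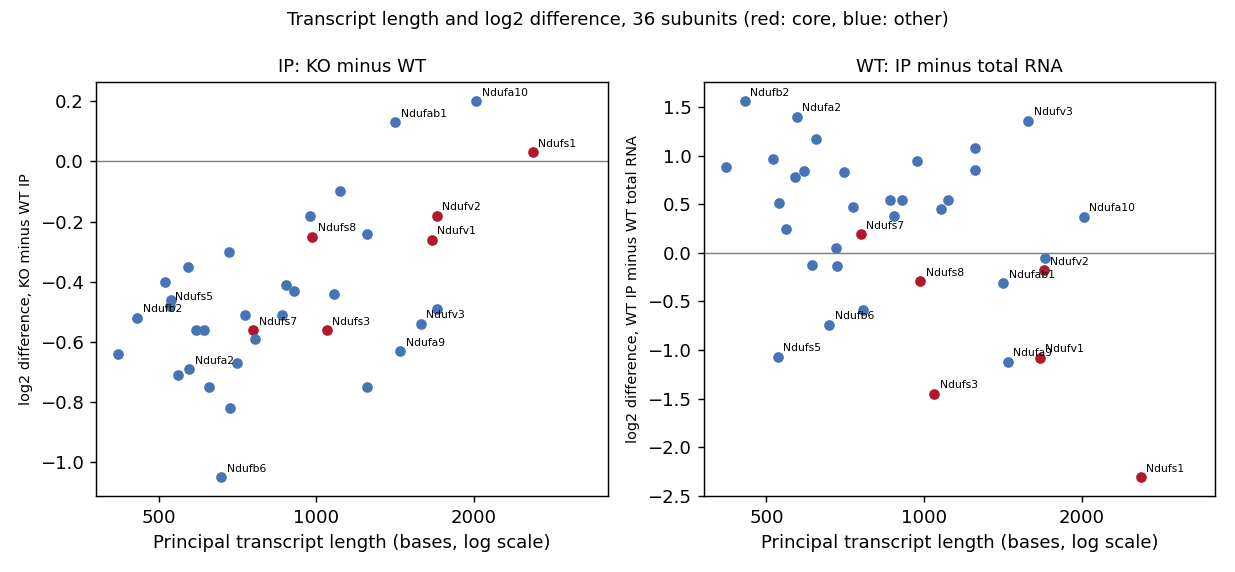
Principal transcript length (bases, log scale) against the log2 difference for KO minus WT in IP (left) and for WT IP minus WT total RNA (right), 1 point for each of 36 members, core subunits in red and others in blue. On the left the 23 members under 1000 bases all lie below 0; on the right Ndufs1, at 2590 bases, lies lowest at -2.31.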

How the data were processed

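The authors deposited whole-number counts of reads per Ensembl gene for each of the 10 libraries. STAR, HTSeq and GRCm38 (mm10) are named in the submitters' processing notes; their versions, the strand setting and any filters are not given in the sources used here. An Illumina TruSeq kit was used for the libraries, per the labels' protocols. Symbols came from GENCODE M21 for 42548 of 43629 genes; transcript length and exons are those of 1 principal transcript per gene (best APPRIS rank, then support level, then shortest). Promoters came from a RefSeq table.

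In edgeR 4.0.16 (R 4.3.3), genes kept by filterByExpr were fitted on the deposited counts with TMM scaling and a group term. The quasi-likelihood F test was two-sided, and p-values were adjusted by Benjamini-Hochberg over every gene fitted. KO was compared with WT within the 4 IP and within the 6 total RNA libraries; IP against total RNA and the interaction came from 1 fit of all 10. Standard errors were derived from F. CPM use TMM factors of the same libraries. The floor of 3 counts lay at 0.743 to 3.27 CPM in IP and 0.203 to 0.310 CPM in total RNA, below every member, and covers counting error only. No library was a copy of another: counts of replicates differed by 5.95 to 70.6 times counting noise (chi-square per degree of freedom). DESeq2 1.42.0, limma-voom (limma 3.58.1), other scalings, no filter, a replicate block and leaving out libraries were tried. The code was tested on simulated data. Members, gene lists and named genes were chosen with earlier results of these data known; named are the core genes, the 4 smallest p and the largest called differences per comparison, and the extremes of level. Values of 1 member are not reported here singly or drawn; it stays in the counts, sums and medians.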

Additional observations from a re-analysis of the deposited data

How the results depend on the processing

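In total RNA no member was called under any setting; of all genes, no filter called 64, DESeq2 called 5, and leaving out libraries called 0. The member median there ran from -0.13 to 0.25 with 1 library left out and was 0.38 without both marker-rich libraries (WT total RNA 2 and KO total RNA 1). In KO against WT IP, where edgeR called 0 genes (1128 at an unadjusted p under 0.05), library size alone called 1 gene, no filter 103, DESeq2 57, limma-voom 3, robust edgeR 24, the replicate block 28 and the fit of all 10 libraries 1, and leaving out libraries called 13 to 146. The members called there were 4 by DESeq2, all lower, and 0 under the other settings that kept all 4 IP libraries. Leaving out 1 IP library left 1 in its group, without a spread of its own. The member median then ran from -0.59 to -0.33. In WT IP against total RNA, leaving out libraries gave 7 to 19 members called, 2 to 12 of them higher. In KO IP against total RNA, library size alone gave 20 members called, 12 higher and a median of 0.22; no filter gave 17 called and 4 higher; limma-voom and the replicate block gave 2 higher each, and leaving out both marker-rich libraries gave 0. There, leaving out libraries gave 6 to 16 members called, 0 to 5 higher, 6 to 13 lower, a median of -0.36 to 0.06, and 2148 (without KO IP 2) to 5706 of all genes, 5251 with all libraries. For the interaction, library size alone gave a member median of -0.17 and 0 genes called, no filter gave 1 member (Ndufb6, -1.34, adjusted p = 0.0278) and 263 genes, DESeq2 17 genes, and limma-voom, the replicate block and leaving out both marker-rich libraries 0; leaving out libraries gave 0 to 1 gene. The 1 gene called with all libraries was Prps1l3 (-5.28 ± 0.71, adjusted p = 0.0415), named after its value was seen. The cause of these shifts was not tested.

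Single core genes near 0 changed sign. In total RNA, Ndufs3 was -0.03 with library size alone, Ndufs7 was 0.01 without KO total RNA 1 and also without KO total RNA 2, and Ndufs8 ran from -0.03 without KO total RNA 3 to 0.42 without WT total RNA 1 (0.48 without both marker-rich libraries). In KO against WT IP, Ndufs1 was -0.01 by limma-voom, -0.18 without WT IP 1, and ran from -0.24 without KO IP 1 to 0.30 without KO IP 2; Ndufv2 was 0.06 without KO IP 2 and ran from -0.45 without KO IP 1 to 0.11 without WT IP 2. In WT IP against total RNA, Ndufv2 ran from -0.56 without WT IP 2 to 0.05 without WT IP 1. In KO IP against total RNA, Ndufs7 was 0.11 with library size alone, and Ndufs8 lost its call with library size alone, with the replicate block and without KO total RNA 3, KO IP 1 or KO IP 2. In the interaction, library size alone gave 0.20 for Ndufv1 and 0.58 for Ndufs1, Ndufs1 ran from -0.05 without KO IP 1 to 0.46 without KO IP 2 with 1 library left out, and Ndufv1 from -0.38 without KO IP 1 to 0.02 without KO IP 2. Whether the replicate numbers pair the samples is not stated. Deviations of same-numbered KO and WT libraries correlated at 0.12, -0.14 and -0.34 in total RNA and at -0.07 in IP. Between IP and total RNA, same-numbered libraries correlated at 0.13 and 0.15 in KO and at 0.11 and 0.09 in WT, with 2 pairs each. Libraries 1 and 2 paired across numbers gave -0.15 and -0.13 in KO and -0.09 and -0.11 in WT. The deviations of 2 IP libraries mirror each other, so these values cannot decide whether the samples are paired. With the replicate block the member median was 0.11 in total RNA and -0.50 in IP. The IP values rest on 2 libraries a group, the shallowest with 917462 reads.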
